A study of Mus musculus with 24 samples.

Results

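The genes described here are 9 ligands of the tumour necrosis factor (TNF) superfamily: Tnf, Tnfsf4, Tnfsf8, Tnfsf9, Tnfsf10, Tnfsf11, Tnfsf13, Tnfsf13b and Cd70. They were taken by symbol, with earlier results of these data known, and are 9 of 39017 genes in the count table. All 9 had enough reads to pass the low-count filter, which left 18093 genes. They were measured by RNA sequencing in 24 libraries of sorted splenic dendritic cells. The mice had the strain label C57BL/6 x FVB/N F1. Their genotype was either Flt3 +/+ (WT, 12 libraries) or Flt3 ITD/+ (ITD, 12 libraries). Flt3 is the receptor that drives dendritic cell development, and ITD is an internal tandem duplication in it, an activating mutation found in leukemia. The labels do not give age, sex or the number of mice behind a library.

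The 5 sorted subsets were PDC (the usual short name of plasmacytoid dendritic cells), canonical CD8+ cells (C_CD8), non-canonical CD8+ cells (NC_CD8), Esamhi CD11b+ cells (Esamhi) and Esamlo CD11b+ cells (Esamlo). PDC were sorted in batches A and B, both CD8+ subsets in batches B, C and D, and both CD11b+ fractions in batches C and D. A batch is a separate experiment per the labels. For every subset sorted in a batch there was 1 WT library and 1 ITD library, which makes 12 pairs. Libraries held 11197145 to 22248404 counts. Libraries of a given subset and genotype came from separate experiments, but the subsets shared the 4 batches. The fits took libraries, or pairs where stated, as independent. Their p-values thus measure the spread between libraries or pairs, and not between 4 independent experiments. Summed PDC markers were highest in PDC libraries, at 8680 to 9800 CPM (the usual unit of counts scaled to library size) in WT and 8160 to 8960 CPM in ITD libraries. NC_CD8 libraries held them at 815 to 1080 CPM in WT and 793 to 1070 CPM in ITD libraries. Summed markers of conventional type 1 cells (Xcr1, Clec9a, Cadm1, Irf8, Batf3 and Cd8a) averaged 5410 CPM in WT C_CD8 against 1110 CPM in WT NC_CD8 cells, but did not set C_CD8 apart from PDC, at 5460 CPM in WT. In bulk samples, fewer cells of a type and less RNA per cell cannot be told apart.

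TNF superfamily ligands are made as membrane proteins with the C terminus outside the cell. They act as trimers, on the surface or after cleavage, on receptors of the TNF receptor superfamily. On dendritic cells, 4-1BBL (Tnfsf9), OX40L (Tnfsf4), CD70 and CD30L (Tnfsf8) engage receptors on T cells and add to the signals that activate them. BAFF (Tnfsf13b) and APRIL (Tnfsf13) act on B cells and plasma cells, TNF is an inflammatory cytokine, TRAIL (Tnfsf10) engages death receptors, and RANKL (Tnfsf11) is best known for osteoclast formation and for survival signals to dendritic cells.

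In mm10, 3 members lie on chromosome 17. Tnf was annotated at chr17:35199381-35202007 on the minus strand, Tnfsf9 at chr17:57105325-57107757 on the plus strand and Cd70 at chr17:57145997-57149777 on the minus strand. The others were Tnfsf4 at chr1:161395409-161418410 (plus), Tnfsf8 at chr4:63831308-63861347 (minus), Tnfsf10 at chr3:27317028-27342427 (plus), Tnfsf11 at chr14:78277445-78308043 (minus), Tnfsf13 at chr11:69682846-69685784 (minus) and Tnfsf13b at chr8:10006467-10039072 (plus). All are protein-coding genes. Tnfsf9 shares 192 exon bases with Gm11110, and Tnfsf13 shares 983 with the fusion gene Tnfsfm13 and 221 with Tnfsf13os. How reads in shared exons were assigned, and on which strand, is not given in the sources used here, so the Tnfsf13 counts in particular are uncertain.

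Promoters are shown for Tnf and Tnfsf13b, the members whose WT level was called higher in C_CD8 than in NC_CD8 cells. Both windows are the 250 bases before a RefSeq transcription start (GRCm38.p6, the assembly of mm10), at chr17:35202008-35202257 on the minus strand for Tnf and at chr8:10006217-10006466 on the plus strand for Tnfsf13b. Each is written 5′ to 3′ in the direction of transcription, with matches to a searched motif in capitals.
Tnf: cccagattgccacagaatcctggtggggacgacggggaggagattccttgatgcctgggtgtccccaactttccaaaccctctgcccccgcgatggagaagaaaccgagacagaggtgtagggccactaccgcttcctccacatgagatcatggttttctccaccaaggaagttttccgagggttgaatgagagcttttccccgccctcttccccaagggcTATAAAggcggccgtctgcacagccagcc
Tnfsf13b: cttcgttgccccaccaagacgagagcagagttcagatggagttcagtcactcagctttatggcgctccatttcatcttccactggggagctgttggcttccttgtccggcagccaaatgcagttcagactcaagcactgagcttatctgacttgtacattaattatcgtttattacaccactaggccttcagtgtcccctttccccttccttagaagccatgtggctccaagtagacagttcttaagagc
The capitals in Tnf are a TATAAA match, 29 to 24 bases before the start. The Tnfsf13b window held none of the letters searched on either strand: TATAAA, the AP-1 motif TGANTCA, an NF-kappaB motif (GGG and TTTCC with any 2 bases between them) and an interferon response motif (GAAA and GAAA with any 2 bases between them). Among 32851 mouse promoters of this length, TATAAA was found in 12.4%, TGANTCA in 6.75%, the NF-kappaB motif in 1.41% and the interferon response motif in 2.98%. RefSeq entries matched 6 of the 9 members. Tnfsf11 held TATAAA on the other strand, 32 to 27 bases before its start, and Tnfsf13 held TGAGTCA at 133 to 127. A second annotated Tnfsf13b start had TGAGTCA at 127 to 121 and GAAAGTGAAA at 16 to 7. Matches describe the letters only.

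Across the WT subsets, NC_CD8 and Esamlo cells carried the most Tnfsf9 per length of exon, and the other subsets the most Tnf. Mean Tnfsf9 was 189 CPM per kb of exon in NC_CD8 and 124 in Esamlo cells. Mean Tnf was 68 CPM per kb in Esamhi, 47.8 in C_CD8 and 29.1 in PDC libraries. Among the members other than Tnf and Tnfsf9, the highest WT means were Tnfsf4 in NC_CD8 cells at 7.67 and Tnfsf8 in Esamhi cells at 3.46 CPM per kb. Tnfsf10, Tnfsf11, Tnfsf13, Tnfsf13b and Cd70 stayed under 1 CPM per kb in every WT subset.

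**Figure D1:**
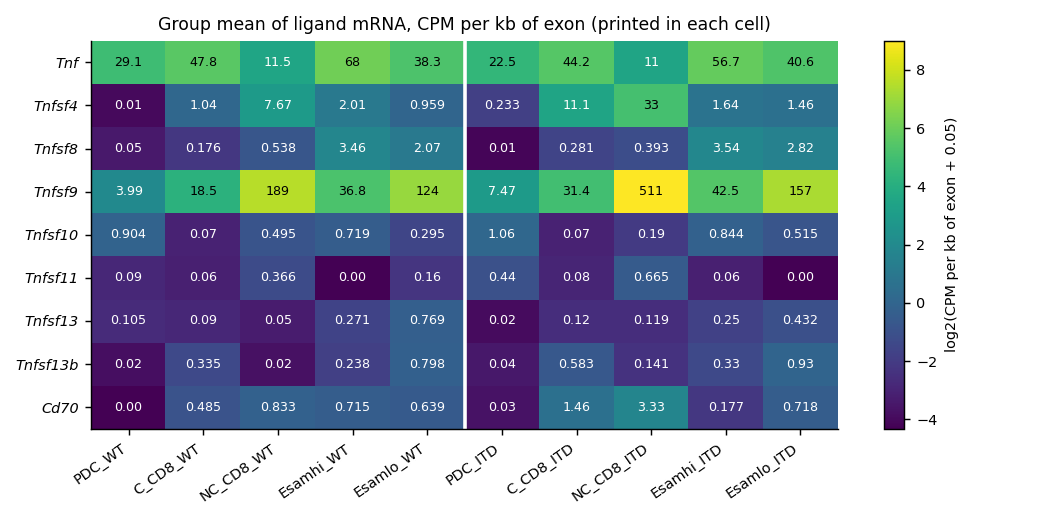
Group means of the 9 ligands in CPM per kb of exon, with WT groups on the left and ITD groups on the right of the white line; colour is log2(value + 0.05) and the value is printed in each cell. Tnfsf9 in NC_CD8 cells is the highest value in both genotypes, at 189 in WT and 511 in ITD libraries.

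In a test of any difference among the 5 WT subsets, 5 of 9 members were called at an edgeR adjusted p under 0.05, against 46.7% of all genes tested. They were Tnf, Tnfsf8, Tnfsf9, Tnfsf13 and Tnfsf13b. With a batch term in the fit, 8 of 9 were called against 64.1% of all genes, and only Tnfsf10 missed the threshold (0.137). Among ITD subsets 6 of 9 were called, against 44.7% of all genes: Tnf, Tnfsf4, Tnfsf8, Tnfsf9, Tnfsf13b and Cd70. These shares are near the background. The ITD call of Tnfsf4 (0.0305) was lost without any 1 of 7 ITD libraries (0.0521 to 0.105) and that of Tnf (0.0122) without ITD NC_CD8 replicate 1 (0.0512), by edgeR. With a batch term 7 of 9 were called among ITD subsets, against 62.4%. Over the 10 pairs of WT subsets the 9 members gave 27 calls. PDC differed in 4 members each from C_CD8 (37.8% of all genes), NC_CD8 (26.4%), Esamhi (30.6%) and Esamlo (30.2%), and NC_CD8 differed in 4 from Esamhi (6.34%) and in 1 from Esamlo (4.08%). All 4 calls of NC_CD8 against Esamhi rest on only 2 WT Esamhi libraries. Those of Tnfsf8 and Tnfsf13b were lost without WT NC_CD8 replicate 1 or 3, by edgeR. C_CD8 differed in 3 members from NC_CD8 (25%), in 1 from Esamhi (23.5%) and in 2 from Esamlo (16%). Between Esamhi and Esamlo edgeR called 0 members (0.658% of all genes), and 2 had an unadjusted p under 0.05.

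**Figure D2:**
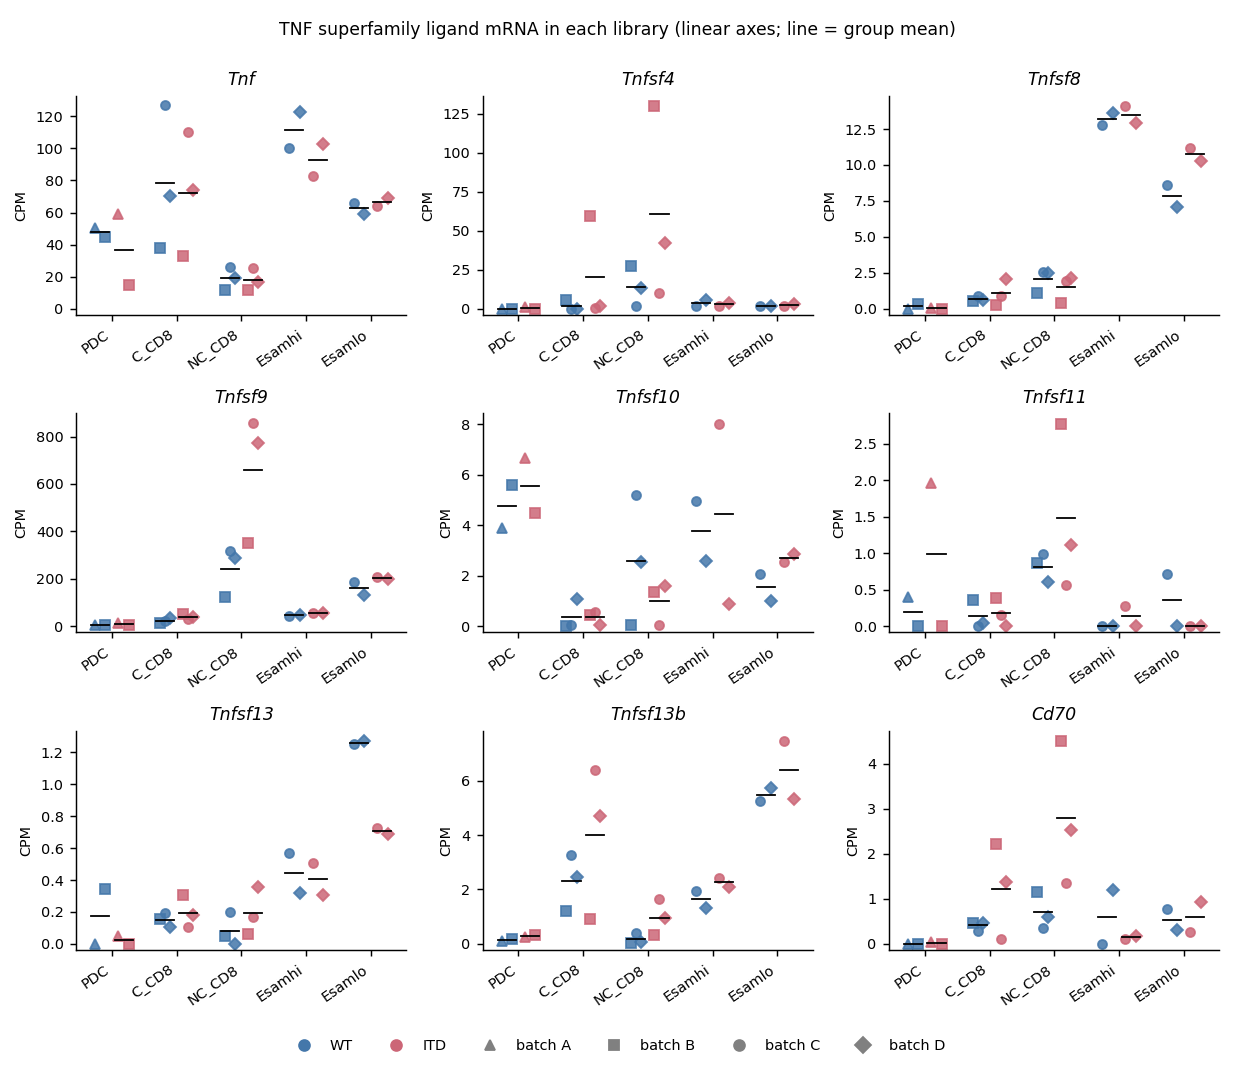
CPM of each ligand in every library, by subset, on linear axes that differ between panels; colour marks the genotype, symbol shape the batch and the black line the group mean. Tnfsf9 and Tnfsf4 are highest in NC_CD8, Tnf and Tnfsf8 in Esamhi, Tnfsf13b in Esamlo and Tnfsf10 in PDC libraries by their group means in both genotypes. In batch C, WT Tnfsf4 is slightly lower in NC_CD8 than in both CD11b+ fractions.

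Tnfsf9, the ligand of the T cell costimulatory receptor 4-1BB, was the most abundant member in NC_CD8 cells. WT NC_CD8 libraries held 123, 317 and 290 CPM in batches B, C and D, and WT Esamlo libraries 185 and 134 CPM in batches C and D. WT Esamhi libraries held 45.5 and 49.4 CPM, and WT C_CD8 libraries 14.3, 21.6 and 35.9 CPM. WT PDC libraries held 5.38 and 4.92 CPM in batches A and B. The order was thus NC_CD8, Esamlo, Esamhi, C_CD8 and PDC, with a mean of 243 ± 105 CPM (SD, n = 3) at the top, 47.2 times that at the bottom. NC_CD8 and Esamlo ranges overlapped and were not told apart (edgeR adjusted p = 0.535, and 0.16 with a batch term). Esamlo against Esamhi missed the threshold without the batch term (0.115) and passed with it (0.0122), by edgeR. Esamhi and C_CD8 were not told apart (0.0985 and 0.0872), whereas C_CD8 exceeded PDC in both edgeR fits (0.00126 and 0.00334). NC_CD8 exceeded Esamhi by 2.36 on the log2 scale (edgeR adjusted p = 0.00388), a call that was lost without WT Esamhi replicate 1 (2.29, adjusted p = 0.0725) or replicate 2 (2.42, adjusted p = 0.0643).

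ITD libraries kept the same order of means for Tnfsf9, and every ITD library was above the WT library of its subset and batch. ITD NC_CD8 libraries held 352, 855 and 772 CPM, which was 2.86, 2.70 and 2.66 times the WT library of batches B, C and D. After the scaling used here, the lowest ITD library was above the highest WT library there (352 against 317 CPM). Scaled by total counts alone, that ITD library (batch B) was at 326 CPM, below the 353 CPM of that WT library (batch C). Summed markers of other cells also differed between these WT and ITD NC_CD8 libraries, though not in the same direction in every pair. The same libraries gave the Tnfsf4 and Tnfsf13b differences described below. The summed type 1 markers were 894 to 1530 CPM in WT and 617 to 678 CPM in ITD NC_CD8 libraries. With the replicate block 3 of the 6 were called lower and 0 higher by edgeR, where 2.4% of all genes were called lower. Summed T cell markers were 43.7 to 98.6 CPM in WT and 21.9 to 27.6 CPM in ITD, with 3 of 6 called lower. NK cell markers were 1.78 to 51.9 and 2.04 to 6.3 CPM, and macrophage markers 33.6 to 557 and 49.8 to 96.3 CPM, with 2 of 6 called lower in each. Both sums were lower in ITD in batches C and D. In batch B both were higher in ITD, at 2.04 against 1.78 CPM for NK cell and 49.8 against 33.6 CPM for macrophage markers. Of the 5 PDC markers, 2 were called lower and 1 higher with the block (2.38% of all genes higher). Without the block 1 of the 6 type 1 markers was called lower (0.204% of all genes), and 0 of the T cell, NK cell and macrophage markers. None of these markers was at 0 in either group, and their part in the ligand differences was not tested. ITD C_CD8 libraries held 51.7, 32.5 and 37.3 CPM, which overlapped the WT values. ITD PDC libraries held 12.9 and 6.42 CPM, ITD Esamhi libraries 55.2 and 54.5 CPM and ITD Esamlo libraries 208 and 198 CPM. In these 3 subsets the genotypes did not overlap, with 2 libraries on each side. An ITD value above WT in 12 of 12 pairs was found for 1.09% of all genes.

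The size of the Tnfsf9 difference was 1.44 on the log2 scale in NC_CD8 cells without a block, where it missed the threshold (edgeR adjusted p = 0.16). With the replicate block, which compares each ITD library with the WT library of its own subset and batch, it was 1.45 (SE 0.23, edgeR adjusted p = 0.00411). Leaving out each of the 3 batches in turn left it at 1.41 to 1.47 and called. DESeq2 without the block called it too (adjusted p = 0.0205). On average over the 5 subsets Tnfsf9 was 0.74 higher in ITD cells with the block (SE 0.13, edgeR adjusted p = 0.00604), and 0.73 without it (0.144). This average was called with the block whichever of the 12 pairs was left out (0.64 to 0.82).

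Counted over the family, 0 of 9 members passed edgeR without the block in any subset, on average, or in the test of an unequal ITD effect among subsets. At an unadjusted p under 0.05 there were 0 in PDC, 1 in C_CD8, 2 in NC_CD8, 0 in Esamhi, 0 in Esamlo and 2 on average, and 0 for the unequal effect. The share of all genes called was 0.0608% in PDC, 0.0166% in C_CD8, 0.31% in NC_CD8, 0% in Esamhi, 0.00553% in Esamlo, 0.359% on average and 0% for the unequal effect. DESeq2 without the block called Tnfsf9 in NC_CD8 cells (1.31% of all genes) and on average (1.69%), and no other member. With the replicate block, edgeR called 1 member in C_CD8, 3 in NC_CD8 and 3 on average, all higher in ITD cells. Of all genes 1.23%, 4.79% and 6.83% were called in these comparisons, and 1.19%, 2.38% and 4.49% were called as higher in ITD cells. It called 0 in PDC, Esamhi and Esamlo, where 0.249%, 0.0497% and 0.0497% of all genes were called and 2, 0 and 0 members had an unadjusted p under 0.05. For the unequal effect it called 0 members (0.304% of all genes), and 3 had an unadjusted p under 0.05. With the block the median log2 difference of the 9 members was 0.86 in PDC, 0.55 in C_CD8, 1.11 in NC_CD8, -0.11 in Esamhi and 0.2 in Esamlo cells. On average over subsets it was 0.49, and the median of all genes was 0 in each comparison. The NC_CD8 median was the value of Tnfsf13, from 5 reads in WT and 10 reads in ITD libraries. The C_CD8 median was the value of Tnfsf11 (SE 1.18), from 8 reads in WT and 8 reads in ITD libraries. The Esamhi median was the value of Tnfsf13 (SE 1.13), from 15 reads in WT and 14 reads in ITD libraries. None of these values is precise. The median of the averages was the value of Tnfsf11, which had 0 reads in WT Esamhi and ITD Esamlo libraries, so that its average cannot be estimated.

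**Figure D3:**
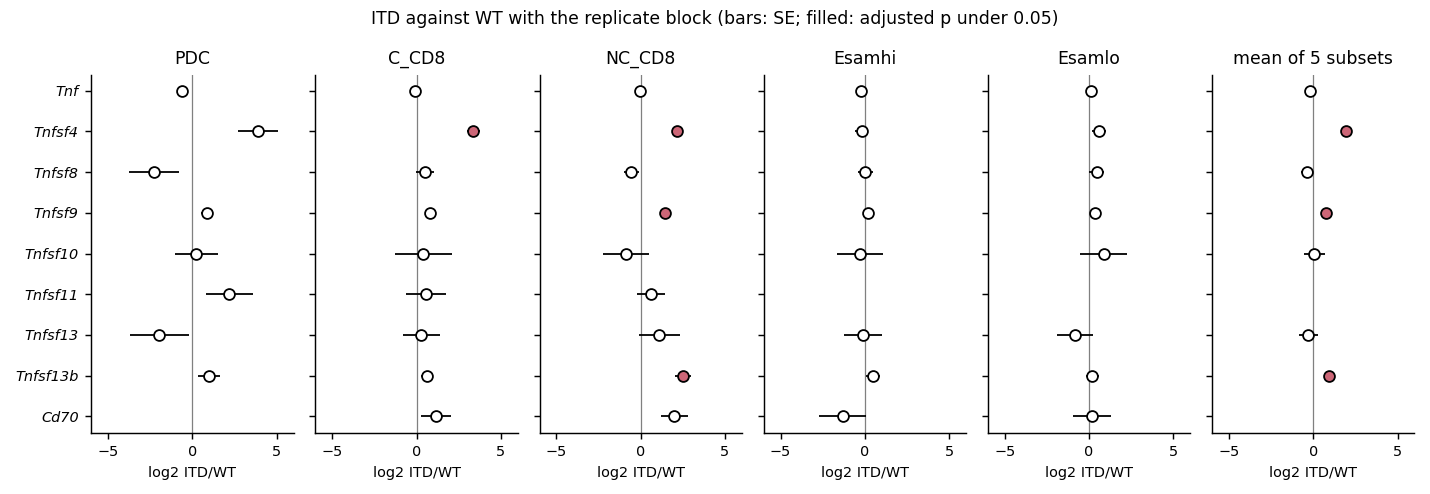
Log2 ITD/WT of each ligand with the replicate block, by subset and as the mean of the 5 subsets; bars are standard errors, filled points passed an edgeR adjusted p of 0.05, and a ligand is not drawn where a group held 0 reads. Filled points are Tnfsf4 in C_CD8, and Tnfsf4, Tnfsf9 and Tnfsf13b in NC_CD8 cells and on average.

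Tnfsf4 encodes OX40L, the ligand of the T cell receptor OX40. Its level differed between batches within a subset. WT NC_CD8 libraries held 27.5, 1.62 and 13.3 CPM in batches B, C and D, and WT C_CD8 libraries held 5.57, 0.144 and 0.0521 CPM. Batch B was thus the highest in both CD8+ subsets. WT Esamhi libraries held 1.72 and 5.70 CPM, WT Esamlo libraries 1.79 and 1.75 CPM, and WT PDC libraries 1 read and 0 reads. The WT subsets did not pass the joint test without a batch term (edgeR adjusted p = 0.0827, but 0.0234 without WT C_CD8 replicate 1) and passed with it (0.00025). NC_CD8 exceeded C_CD8 in each batch, and that difference was called only with the batch term (edgeR adjusted p = 0.18 without it and 0.00224 with it, and 0.0413 without WT C_CD8 replicate 1 and no batch term). In batch C the NC_CD8 library was below both CD11b+ fractions, which were not sorted in batch B. NC_CD8 was not told apart from Esamhi (edgeR adjusted p = 0.604, and 0.833 with a batch term) or Esamlo (0.452 and 0.421).

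Within batches Tnfsf4 was higher in ITD cells of both CD8+ subsets. ITD NC_CD8 libraries held 130, 10.3 and 41.9 CPM, which was 4.74, 6.32 and 3.15 times the WT library of the same batch. With the replicate block the difference was 2.13 on the log2 scale (SE 0.26, edgeR adjusted p = 0.00143), against 2.10 without it (0.867). It was called whichever batch was left out (1.96 to 2.40). ITD C_CD8 libraries held 59.4, 0.262 and 1.79 CPM, each above its WT partner, and 1 library held most of the reads. These were 778, 5 and 30 reads in ITD against 107, 3 and 1 in WT libraries, so the batch C pair rested on very few reads. The C_CD8 difference was 3.37 with the block (SE 0.40, edgeR adjusted p = 0.00225) and 3.41 without it (1). Without the batch B pair it was 3.13 and no longer called (0.185), and without the block and without ITD replicate 1 it turned to -0.90.

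Outside the CD8+ subsets the Tnfsf4 difference between genotypes was not called. ITD Esamhi libraries held 2.09 and 3.96 CPM and ITD Esamlo libraries 2.00 and 3.37 CPM. The ITD PDC library of batch A held 17 reads and that of batch B held 0 reads, as did its WT partner. Of 12 pairs, ITD was higher in 10 and lower in 1. The average over 5 subsets was 1.96 with the block (edgeR adjusted p = 0.00204) and 1.94 without it (0.639). Without the PDC pair of batch A this average cannot be estimated, since the PDC pair that remains had 0 reads in both genotypes. Over the 4 subsets other than PDC the average was 1.48 with the block (SE 0.18, edgeR adjusted p = 0.00108). An unequal ITD effect among subsets was not called for Tnfsf4 by edgeR with the block (0.0677) and was called by DESeq2 with the same block (0.000211).

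**Figure D4:**
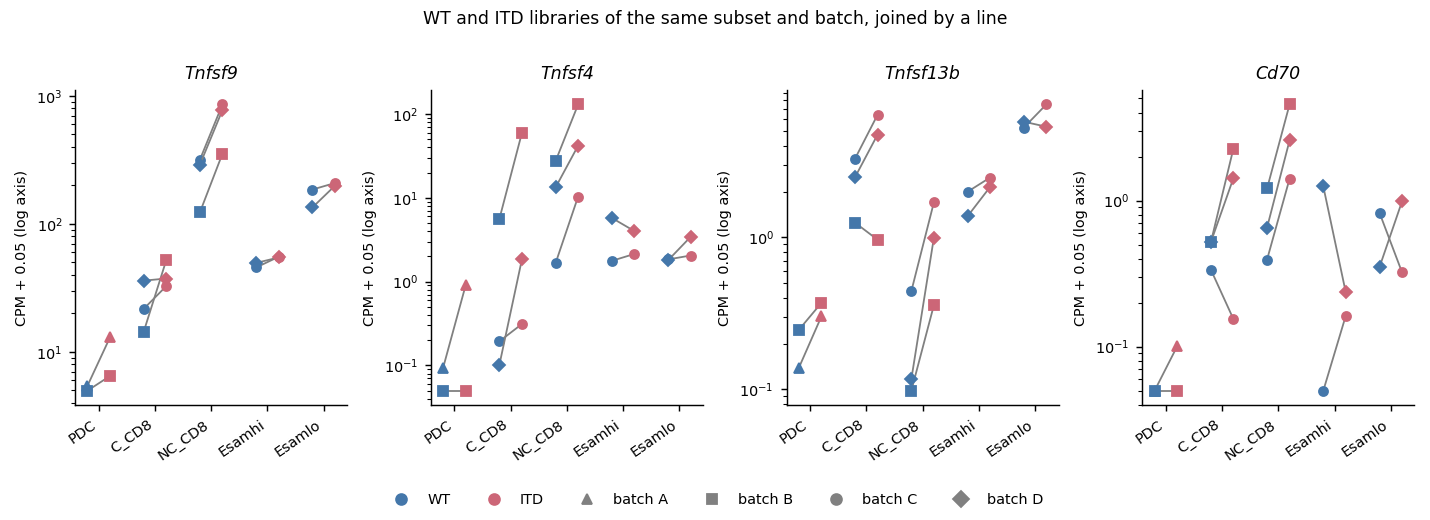
CPM + 0.05 (log axis) of Tnfsf9, Tnfsf4, Tnfsf13b and Cd70 in the WT and ITD library of each subset and batch, with lines joining the libraries of a pair and symbol shapes marking the batch. All 3 NC_CD8 lines rise from WT to ITD for each of the 4 ligands, while the height of the Tnfsf4 lines differs by batch.

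Cd70, the ligand of CD27 on T cells, was rare. It had 0 reads in the WT PDC libraries, and WT NC_CD8 libraries held 1.16, 0.345 and 0.604 CPM. Against a floor of 3 counts over the WT PDC group, the pooled WT NC_CD8 level was at least 10.2-fold higher. That level came from 40 reads, 24 of them in batch B, and the floor does not cover the spread between libraries. ITD NC_CD8 libraries held 4.50, 1.36 and 2.53 CPM, which was 3.90, 3.95 and 4.20 times the WT library of the same batch. The genotypes did not overlap, yet the difference was not called (edgeR adjusted p = 0.727, and 0.199 with the block). WT C_CD8 libraries held 0.468, 0.287 and 0.469 CPM and ITD C_CD8 libraries 2.21, 0.105 and 1.37 CPM, so that batch C went the other way. In WT Esamhi cells replicate 1 had 0 reads and replicate 2 held 1.20 CPM, while the ITD libraries held 0.113 and 0.185 CPM. Esamlo libraries held 0.774 and 0.301 CPM in WT and 0.273 and 0.937 CPM in ITD cells. The 5 subsets differed in ITD cells (edgeR adjusted p = 0.0137, but 0.0543 without ITD PDC replicate 2) and missed the threshold in WT cells (0.104, but 0.0311 and 0.016 without WT Esamhi replicate 1 or 2).

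Tnfsf8, which encodes CD30L, was highest in the CD11b+ fractions. WT Esamhi libraries held 12.8 and 13.6 CPM and WT Esamlo libraries 8.63 and 7.11 CPM in batches C and D. WT NC_CD8 libraries held 1.11, 2.56 and 2.48 CPM, WT C_CD8 libraries 0.52, 0.862 and 0.625 CPM and WT PDC libraries 0 and 0.344 CPM. Both CD11b+ fractions lay above every library of the other subsets. Esamhi held 14.8 and 21.8 times the C_CD8 level in batches C and D. Esamhi and Esamlo were not told apart (edgeR adjusted p = 0.841, and 0.363 with a batch term), and Esamlo against NC_CD8 passed only with the batch term (0.128 and 0.0256). NC_CD8 against Esamhi was -2.69 on the log2 scale (edgeR adjusted p = 0.0217, and 0.00163 with a batch term). Without the batch term that call was lost without WT NC_CD8 replicate 1 (0.0932) or 3 (0.057), by edgeR. The ITD libraries held 14.1 and 12.9 CPM in Esamhi, 11.2 and 10.3 CPM in Esamlo, 0.432, 1.93 and 2.12 CPM in NC_CD8, 0.229, 0.889 and 2.09 CPM in C_CD8, and 0.0504 and 0 CPM in PDC. ITD was higher in 6 pairs and lower in 6. Summed neutrophil markers were 143 CPM in WT and 57.5 CPM in ITD Esamhi cells, where mean Tnfsf8 was 13.2 and 13.5 CPM. They were 95.7 CPM in WT and 38.7 CPM in ITD Esamlo cells, where mean Tnfsf8 was 7.87 and 10.8 CPM. The part of these markers in the Tnfsf8 levels was not tested.

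Tnfsf13b encodes BAFF, a survival factor for B cells. WT Esamlo libraries held 5.24 and 5.73 CPM, WT C_CD8 libraries 1.20, 3.26 and 2.45 CPM and WT Esamhi libraries 1.95 and 1.33 CPM. WT NC_CD8 libraries held 0.0481, 0.394 and 0.0671 CPM and WT PDC libraries 0.0889 and 0.197 CPM. Every NC_CD8 and PDC library was below every library of the other 3 subsets. C_CD8 exceeded NC_CD8 by 3.66 on the log2 scale (edgeR adjusted p = 0.00186). Esamhi against NC_CD8 was called too (0.0249), but not without WT NC_CD8 replicate 1 or 3 or without either WT Esamhi replicate (0.0801 to 0.16, by edgeR), and it passed with a batch term (0.000581). Esamlo, C_CD8 and Esamhi were not told apart as neighbours (0.243 and 0.681), nor were NC_CD8 and PDC (0.864), by edgeR. Esamlo against Esamhi missed the threshold without a batch term (0.486) and passed with it (0.0151), by edgeR.

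In ITD cells Tnfsf13b was higher in 10 of 12 pairs. ITD NC_CD8 libraries held 0.308, 1.65 and 0.943 CPM, from 5, 29 and 16 reads, where the WT libraries held 1, 8 and 1 reads. Each ITD library was above its WT partner, though the lowest ITD library was below the highest WT library. The difference was 2.50 on the log2 scale with the block (SE 0.49, edgeR adjusted p = 0.0132) and 2.42 without it (0.318). It was lost without the batch C pair (3.18, adjusted p = 0.0701) and without the batch D pair (2.15, adjusted p = 0.0774) in edgeR with the block. The level remained below 2 CPM. ITD C_CD8 libraries held 0.916, 6.38 and 4.71 CPM, ITD Esamhi 2.43 and 2.10 CPM, ITD Esamlo 7.46 and 5.31 CPM and ITD PDC 0.252 and 0.321 CPM. The average over 5 subsets was 0.96 with the block (SE 0.21, edgeR adjusted p = 0.0205) and 0.98 without it (0.357). It was called in 9 of 12 fits that left out a pair, and lost without PDC batch A (0.0648), PDC batch B (0.061) or Esamhi batch D (0.0619), by edgeR. A value higher in ITD cells in at least 10 of 12 pairs was found for 3 members (Tnfsf4, Tnfsf9 and Tnfsf13b) and for 8.12% of all genes.

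Tnfsf13 encodes APRIL, which supports plasma cells. It had 0 to 21 reads per library. WT Esamlo libraries held 1.25 and 1.27 CPM, above the WT Esamhi libraries at 0.572 and 0.317 CPM. ITD Esamlo libraries held 0.728 and 0.687 CPM, below both WT libraries, and ITD Esamhi libraries 0.509 and 0.309 CPM. The joint WT call (edgeR adjusted p = 0.0263) was lost without WT NC_CD8 replicate 1 (0.0507), without WT Esamlo replicate 1 (0.0967) and without WT Esamlo replicate 2 (0.103). ITD subsets were not told apart (0.0977).

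Tnf, the inflammatory cytokine of the family, was lowest in NC_CD8 cells. WT Esamhi libraries held 100 and 123 CPM, WT C_CD8 libraries 37.6, 127 and 70.3 CPM and WT Esamlo libraries 66.2 and 59.4 CPM. WT PDC libraries held 50.4 and 44.9 CPM and WT NC_CD8 libraries 11.6, 26 and 19 CPM. Every NC_CD8 library was below every library of the other WT subsets, and C_CD8 exceeded NC_CD8 by 3.26, 4.88 and 3.70 times within batches B, C and D. C_CD8 against NC_CD8 was 2.05 on the log2 scale (edgeR adjusted p = 0.00612), and Esamhi against NC_CD8 was called too (0.00763, but 0.0683 without WT Esamhi replicate 2). The neighbours among Esamhi, C_CD8, Esamlo and PDC were not told apart (0.544, 0.753 and 0.653, by edgeR). PDC against NC_CD8 missed the threshold without the batch term (0.0779) and passed with it (0.00138). Tnf is an early-response gene, and the summed early-response and handling genes were 16600 CPM (14100 to 18000) in WT NC_CD8 against 15600 CPM (11300 to 19600) in WT C_CD8 libraries, and 9200 CPM (6060 to 12300) in WT PDC. They were 23000 CPM (18500 to 27500) in WT Esamhi and 22300 CPM (18300 to 26300) in WT Esamlo libraries, and their part in the Tnf differences was not tested.

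Between genotypes Tnf was higher in 4 pairs and lower in 8. ITD NC_CD8 libraries held 11.8, 25.7 and 16.6 CPM, over the same range as the WT libraries, and ITD C_CD8 libraries 33.2, 110 and 74.2 CPM. ITD Esamhi libraries held 82.7 and 103 CPM and ITD Esamlo libraries 64.2 and 69 CPM. The ITD PDC libraries held 59 and 14.7 CPM and lay on both sides of the WT values.

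Tnfsf10 encodes TRAIL. It was 3.91 and 5.61 CPM in WT PDC and 4.98 and 2.60 CPM in WT Esamhi libraries, and 2.08 and 1.02 CPM in WT Esamlo libraries. WT NC_CD8 libraries ranged over 0.0481, 5.22 and 2.55 CPM, and WT C_CD8 libraries held 0, 0.0479 and 1.09 CPM. The joint test of the 5 subsets missed the threshold in WT (edgeR adjusted p = 0.202) and ITD cells (0.116). Among the WT pairs, PDC exceeded C_CD8 by 3.63 on the log2 scale (edgeR adjusted p = 0.0429, and 0.0277 with a batch term). Without the batch term this call was lost without either WT PDC replicate, WT C_CD8 replicate 1 or 2, WT NC_CD8 replicate 3 or either WT Esamhi replicate (0.0502 to 0.121, by edgeR). ITD values were 6.65 and 4.50 CPM in PDC, 8.03 and 0.866 CPM in Esamhi, 2.55 and 2.87 CPM in Esamlo, 1.36, 0.0568 and 1.59 CPM in NC_CD8 and 0.458, 0.575 and 0.0597 CPM in C_CD8 cells. The genotypes overlapped in each subset except Esamlo.

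Tnfsf11, which encodes RANKL, had 0 to 45 reads per library. NC_CD8 was the only subset with reads in every library, at 0.867, 0.985 and 0.604 CPM in WT and 2.78, 0.568 and 1.12 CPM in ITD cells. WT Esamhi and ITD Esamlo libraries had 0 reads. The WT subsets differed only with a batch term (edgeR adjusted p = 0.259 without it and 0.0118 with it).

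Genotype groups that do not overlap are easily found in small groups. With 2 libraries a side, all ITD values were above all WT values for Tnfsf9 and Tnfsf13b in PDC (10.2% of all genes) and in Esamhi (15.2%), and for Tnfsf4, Tnfsf8, Tnfsf9 and Tnfsf10 in Esamlo cells (16.3%). Tnfsf13 was below in Esamlo (17.3%). With 3 a side, Tnfsf9 and Cd70 were above in NC_CD8 cells (5.93%), and no member was in C_CD8 cells (4.7%). Scaled by total counts alone, Tnfsf9 overlapped in NC_CD8 cells, with 326 CPM in the lowest ITD and 353 CPM in the highest WT library. No other member was wholly below, where the share of all genes was 9.08% in PDC, 3.02% in C_CD8, 5.75% in NC_CD8 and 15.1% in Esamhi cells.

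Some members varied together over the 24 libraries, which share subset and batch, so the Pearson r of log2 CPM is a description. Tnfsf4 and Cd70 had r = 0.81, Tnfsf8 and Tnfsf13 0.736, Tnfsf13 and Tnfsf13b 0.702, and Tnfsf4 and Tnfsf9 0.7, while Tnf and Tnfsf11 had r = -0.614. The genes most like Tnfsf9 among all tested included Il13ra1 (0.949) and Il6st (0.928). Those most like Tnfsf4 were Ehd1 (0.927), Elovl5 (0.914) and Wnt11 (0.913), and those most like Cd70 were Prr7 (0.869), Cd14 (0.858) and Mxi1 (0.857). Tnfsf8 was closest to Scn2b (0.951), Clec4a1 (0.949) and Mmp12 (0.947). Tnfsf13b was closest to Ifi202b (0.884), Itgav (0.88) and Ccl6 (0.879), and Tnfsf13 to Tcea3 (0.893), Ear-ps2 (0.876) and Ccl6 (0.862). Tnf was closest to Cdh23 (0.848), Camk2d (0.847) and Gm12902 (0.83), Tnfsf10 to Gm13147 (0.811), Fbxw10 (0.807) and Tns1 (0.784), and Tnfsf11 to Crip2 (0.833), Gm11349 (0.805) and Gm6776 (0.803).

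Receptors of these ligands were followed as a list of 14 genes, of which 8 differed among WT subsets without a batch term, against 46.7% of all genes, a share near this background. The smallest adjusted p values were those of Tnfrsf13b, which encodes the BAFF and APRIL receptor TACI (edgeR adjusted p = 2.75e-07), Tnfrsf4, which encodes OX40 (6.21e-06), Tnfrsf11a, which encodes RANK (4.66e-05), and Tnfrsf13c, which encodes the BAFF receptor (7.94e-05). Mean Tnfrsf13b was 337 CPM in WT PDC and 10.2 CPM in WT C_CD8 cells. The order was the opposite for its ligand Tnfsf13b, at 0.143 CPM in PDC and 2.30 CPM in C_CD8 cells. Mean Tnfrsf4 was 29.6 CPM in WT C_CD8 and 2.90 CPM in WT NC_CD8 cells, where Tnfsf4 averaged 1.92 and 14.1 CPM. Mean Tnfrsf11a was 87 CPM in WT Esamhi and 6.38 CPM in WT PDC cells, and Tnfrsf13c was 14.9 CPM in WT PDC and 2.72 CPM in WT C_CD8 cells.

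**Figure D5:**
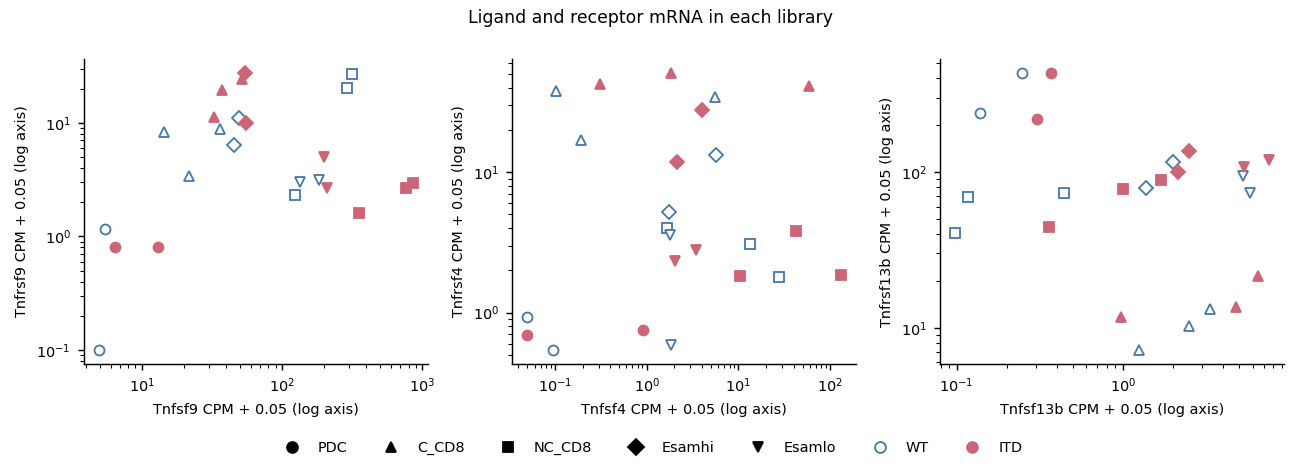
CPM + 0.05 of a receptor against that of its ligand in each of the 24 libraries (log axes) for Tnfsf9 and Tnfrsf9, Tnfsf4 and Tnfrsf4, and Tnfsf13b and Tnfrsf13b; shape marks the subset and fill the genotype. C_CD8 libraries are high in Tnfrsf4, NC_CD8 libraries are highest in Tnfsf4 by group mean, and PDC libraries are high in Tnfrsf13b.

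Between genotypes, 0 of 14 receptors were called without the block in any subset or on average. Tnfrsf9, which encodes 4-1BB, was lower in ITD NC_CD8 cells and higher in ITD C_CD8 cells, and the difference between these effects was not tested. WT NC_CD8 libraries held 2.26, 27.1 and 20.2 CPM and ITD NC_CD8 libraries 1.54, 2.90 and 2.59 CPM, which was lower in each batch, by 2.46 on the log2 scale with the block (edgeR adjusted p = 0.014) and 2.81 without it (0.16). Only 1 of 3 fits that left out a batch kept the call. In the same WT NC_CD8 libraries summed NK cell markers were 1.78, 48 and 51.9 CPM, T cell markers 43.7, 98.6 and 78.2 CPM and macrophage markers 33.6, 557 and 160 CPM. In the ITD NC_CD8 libraries they were 2.04, 6.3 and 3.89 CPM, 21.9, 27.6 and 27.5 CPM, and 49.8, 96.3 and 85.8 CPM. Their part in the Tnfrsf9 difference was not tested. WT C_CD8 libraries held 8.17, 3.35 and 8.70 CPM of Tnfrsf9 and ITD C_CD8 libraries 24.1, 11.2 and 19.3 CPM, a difference that was not called (edgeR adjusted p = 0.157 with the block). Tnfrsf13b was 0.61 higher in ITD C_CD8 cells with the block (edgeR adjusted p = 0.00725), as was Tnfrsf1b by 0.45 (0.0291). When a batch was left out, Tnfrsf13b was called in 1 of 3 fits and Tnfrsf1b in 0 of 3. On average over subsets Tnfrsf13b was 0.30 higher (0.00173) and Tnfrsf23, a TRAIL decoy receptor, was 0.64 lower on the log2 scale (0.0269) with the block, by edgeR. Leaving out a pair kept these calls in 12 and 9 of 12 fits.

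Of the 9 other ligands, 8 differed among WT subsets, where 46.7% of all genes did, led by Ltb, which encodes lymphotoxin beta (edgeR adjusted p = 1.3e-08), and by Tnfsf14 (8.32e-06), Tnfsf15 (0.000171) and Tnfsf18 (0.00317). Mean Ltb was 478 CPM in WT Esamhi, 346 CPM in WT NC_CD8 and 34.4 CPM in WT C_CD8 cells. With the block Ltb was 0.61 higher in ITD C_CD8 cells (edgeR adjusted p = 0.00438) and 0.33 higher on average (0.00117), and Lta, the lymphotoxin alpha gene, was 1.25 higher on average (0.0438), a call kept in 4 of 12 fits that left out a pair. Tnfsf18, which encodes GITRL, had 7, 11 and 8 reads in WT NC_CD8 and 0, 0 and 0 reads in ITD NC_CD8 libraries. Against a floor of 3 counts over the ITD group, the WT level was at least 7.86-fold higher. That call held with the block only (edgeR adjusted p = 0.0491) and in no fit that left out a batch.

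Signalling genes below the receptors were followed as a list of 13. Cflar, which encodes the caspase inhibitor cFLIP, was called without the block in NC_CD8 cells (0.73 higher in ITD cells on the log2 scale, edgeR adjusted p = 0.0496) and on average (0.38, 0.0397). With the block these were 0.72 (0.0035) and 0.38 (0.00266), and they were called whichever pair was left out. Without the block the NC_CD8 call was lost without any 1 of its 6 libraries (0.0516 to 0.246). Mean Cflar was 73.7 CPM in WT and 123 CPM in ITD NC_CD8 cells. Tnfaip3, which encodes the NF-kappaB inhibitor A20, averaged 919 CPM in WT and 1750 CPM in ITD NC_CD8 cells, 0.93 higher with the block (edgeR adjusted p = 0.00191) and called whichever batch was left out. With the block Birc3, an inhibitor of apoptosis, was 0.39 higher and Casp8, the caspase recruited to death receptors, was 0.31 higher in NC_CD8 cells (edgeR adjusted p = 0.0327 and 0.0446), but neither call was kept in any of the 3 fits that left out a batch (0.0714 to 0.262 and 0.0581 to 0.255). In total 4 of 13 were higher and 0 lower in NC_CD8, 1 of 13 (Birc2, 0.67, adjusted p = 0.00856) was higher in C_CD8, and 5 of 13 were higher on average, with the block in edgeR. Of all genes, 2.38%, 1.19% and 4.49% were called higher in these comparisons. The Birc2 call in C_CD8 was kept in 2 of 3 fits that left out a batch. Of 9 genes that release ligands from the membrane or control their mRNA, Zfp36 and Zfp36l1, which encode proteins that bind and destabilise AU-rich mRNAs such as that of Tnf, were higher in ITD NC_CD8 cells with the block by 0.50 and 0.48 (edgeR adjusted p = 0.00841 and 0.0301). When a batch was left out, Zfp36 was called in 1 of 3 fits and Zfp36l1 in 0 of 3, by edgeR with the block.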

How the data were processed

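Per the labels' protocols, sorted cells were extracted with PicoPure, some of them with Trizol beforehand (which samples is not labelled), and amplified with the Clontech SMART-seq v4 kit. Tools were bcl2fastq 1.8.4, Bowtie2 and DESeq2 1.8.2, with mm10, per the submitters' processing notes. The authors deposited raw read counts per Ensembl gene. The read counter, annotation and strandedness were not given in the sources used here. Symbols, positions and exon lengths came from GENCODE (mm10), which matched 37693 of 39017 genes.

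Counts were scaled by TMM and filtered with filterByExpr (minimum count 10) in edgeR 4.0.16 (R 4.3.3). A quasi-likelihood model with 10 group means was fitted to 24 libraries without a block, with 14 residual degrees of freedom. A gene was called at a Benjamini-Hochberg adjusted p under 0.05 over all genes tested. SE is the standard error of a log2 fold change. Genotype results were also fitted with a replicate block on the 12 pairs (7 residual degrees of freedom), subset results with a batch term (11), and both with DESeq2 1.42.0. Pairs come from the experiment batch in the labels. Deviations from group means correlated within 12 of 12 pairs (r from 0.134 to 0.646, over 0.1 in each), but these are not 12 separate values. With 2 libraries a group, both pairs of a subset give the same r by construction (0.646 in PDC, 0.319 in Esamhi and 0.134 in Esamlo cells). In the CD8+ subsets, with 3 libraries a group, r was 0.198 to 0.526. The fits were also run on counts simulated from the block fit, with changes placed only in genes of higher counts. That run cannot check the block model itself or the members with few reads. No replicate libraries agreed within sampling noise. Counting floors cover counting error only.

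Named receptors, ligands and signalling genes are, per list and comparison, up to 4 called genes with the smallest adjusted p without the block; Tnfrsf9 in C_CD8 cells, Tnfsf18 reads and the summed markers were added for context. For likeness the 3 genes with the highest r of log2 CPM (prior count 2) are named, except 1 that is not reported here. Members and lists were chosen with earlier results of these data known.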

Additional observations from a re-analysis of the deposited data

How the results depend on the processing

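Over the alternatives run, 0 members were called between genotypes in edgeR without the block in any fit that left out a library (0 to 0 in each of the 7 genotype results), with RLE normalization, without the low-count filter or with the libraries of a subset alone. With the replicate block the counts of members were 1 in C_CD8, 3 in NC_CD8 and 3 on average. DESeq2 gave 1 in NC_CD8 (1.31% of all genes) and 1 on average (1.69%), and DESeq2 with the replicate block, chosen after seeing the data, gave 1, 3 and 3, and 1 for an unequal effect among subsets (2.88%, 7.25%, 9.5% and 3.74% of all genes). The cause was not tested, but the block lowered the biological coefficient of variation from 0.317 to 0.141. Over all genes the calls in PDC, C_CD8, NC_CD8, Esamhi, Esamlo and on average were 11, 3, 56, 0, 1 and 65 without the block, 45, 223, 866, 9, 9 and 1236 with it, 18, 98, 227, 2, 2 and 293 in DESeq2, and 118, 440, 1108, 64, 236 and 1452 in DESeq2 with the block. Leaving out each pair, and averaging over the 4 subsets other than PDC, were also chosen after seeing the data.

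Members called among WT subsets numbered 8 with a batch term and 4 to 6 when a library was left out, against 5. Over the 10 WT pairs calls ran from 21 to 29 when a library was left out (27 with all, 40 with a batch term and 36 in DESeq2), and among ITD subsets members ran from 4 to 6. Signs turned in 4 fits that left out a library. Tnfsf4 in C_CD8 cells ran from -0.90 (without ITD replicate 1) to 7.58 on the log2 scale, and Tnfsf4 in C_CD8 against Esamhi from -5.15 to 0.15 (without WT Esamhi replicate 2; -0.95 with all). Tnfsf11 in PDC against Esamlo ran from -5.67 to 4.90 (without WT Esamlo replicate 1) and was 0.17 without WT PDC replicate 2 (-0.80 with all). With 0 to 45 reads per library for Tnfsf11 and 0 to 73 for Cd70, 0 to 21 for Tnfsf13 and 1 to 29 for Tnfsf13b in NC_CD8, depth limited the precision of these differences. With 2 or 3 libraries a group, a p over the threshold does not show that genotypes had equal levels.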
